A study of Mus musculus with 88 samples.

Results

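The #8520 tumour is a fibrosarcoma that had been induced by radiation in a C3H mouse. It was examined 1 day after a single dose of 30 Gy of carbon ions, against untreated #8520 tumours of the same experimental arm. The comparison rests on 4 of 88 arrays, chosen by the tumour, beam, dose and time in their titles: 2 arrays of irradiated tumour and 2 of untreated tumour. The series set carbon ions, a heavy charged-particle beam, beside gamma rays as the reference beam in 4 transplanted tumours grown in the hind legs of C3H/HeNrs mice. Total RNA was labelled with Cy5 and hybridised to single-colour CodeLink arrays. The other groups used here were #8520 at 6 h and day 3 after the same 30 Gy of carbon ions, #8520 untreated and at day 1 after 30 Gy of gamma rays, and untreated and day 1 carbon-ion tumours of NR-S1 and SCCVII, both squamous cell carcinomas, and of NFSa, a spontaneous fibrosarcoma. Each of these groups had 2 arrays. The labels name no transgene or drug, and "untreated" means 0 Gy. Separate animals behind each pair of arrays are not stated. The p-values rest on the spread between the 2 arrays of a group, pooled over all 88 arrays, and that spread may be technical.

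Ionising radiation breaks DNA, and the breaks activate the checkpoint kinases and the transcription factor p53. p53 raises genes that stop the cell cycle, repair DNA or trigger cell death, and its target Cdkn1a leads, through the E2F and DREAM complexes, to lower transcription of replication and mitosis genes. Irradiated tumours also contain dying cells, vessels, host fibroblasts and leukocytes, and a piece of tumour measured as bulk RNA mixes all of them. In such bulk samples fewer cells of a type and less RNA per cell cannot be told apart.

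The deposited intensities had medians of 1.05 and 1.06 on the untreated arrays and 1.06 and 1.07 at day 1. The arrays of each pair correlated at 0.9964 and 0.9971 over genes. The mean intensity was higher at day 1, at 10.9 and 11.2 against 9.62 and 9.75 untreated, and between 8.85 and 9.10 at 6 h and day 3, so bright probes were brighter at day 1 while the median stayed put. Quantile normalization, which forces all arrays onto one distribution, moved the median difference of all genes from 0.07 to -0.04 on the log2 scale. It also moved the share of called genes that were higher from 62.2% to 46.7%. Many list counts below are therefore given with their quantile-normalized counterpart. A count given without one may also have shifted.

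Untreated #8520 had mesenchymal marker levels like those of NFSa and epithelial marker levels below those of NR-S1. Untreated log2 levels of Col3a1, a fibrillar collagen, were 7.69 in #8520 and 7.70 in NFSa, and those of Vim, the mesenchymal filament protein vimentin, were 7.66 and 7.69. Krt5, the keratin of basal keratinocytes, stood at -2.22 in #8520 and at 9.04 in NR-S1, and Epcam, an epithelial adhesion molecule, at -0.54 and 7.17. Col3a1 and Vim were not set against the carcinomas here, nor Krt5 and Epcam against SCCVII. These pairs alone therefore do not show that the markers separate the tumour types. The summed intensity of 24 keratinocyte and epithelial markers was 32.0 to 33.0 untreated and 37.0 to 38.5 at day 1. Skeletal muscle genes were detected in both groups, with a sum over 29 markers of 916 to 930 untreated and 942 to 975 at day 1. The tumours grew in the leg, but the source of this RNA was not tested.

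One day after carbon ions, neutrophil and p53 target genes were raised, and cholesterol synthesis, replication and interferon gamma target genes were lowered. Mitosis genes stood near their untreated level under the deposited scaling and leaned lower after quantile normalization (median -0.27). Of 13459 genes tested, 6580 were called at an adjusted p below 0.05, which is 48.9% of them. Of these 4090 were higher, 30.4% of the genes tested, and 2490 were lower, 18.5%. A difference of at least 1.5-fold was called for 2433 genes, 18.1%, with 1588 higher (11.8%) and 845 lower (6.28%). After quantile normalization 20.9% of genes were called higher and 23.9% lower, and these are the shares to hold the quantile-normalized list counts against. The untreated #8520 arrays of the carbon and gamma arms, with no irradiation between them, differed in 4783 of 13441 genes, 35.6%. Because nearly every other gene was called, the size of a change and the balance of a list say more here than the fact of a call.

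**Figure D1:**
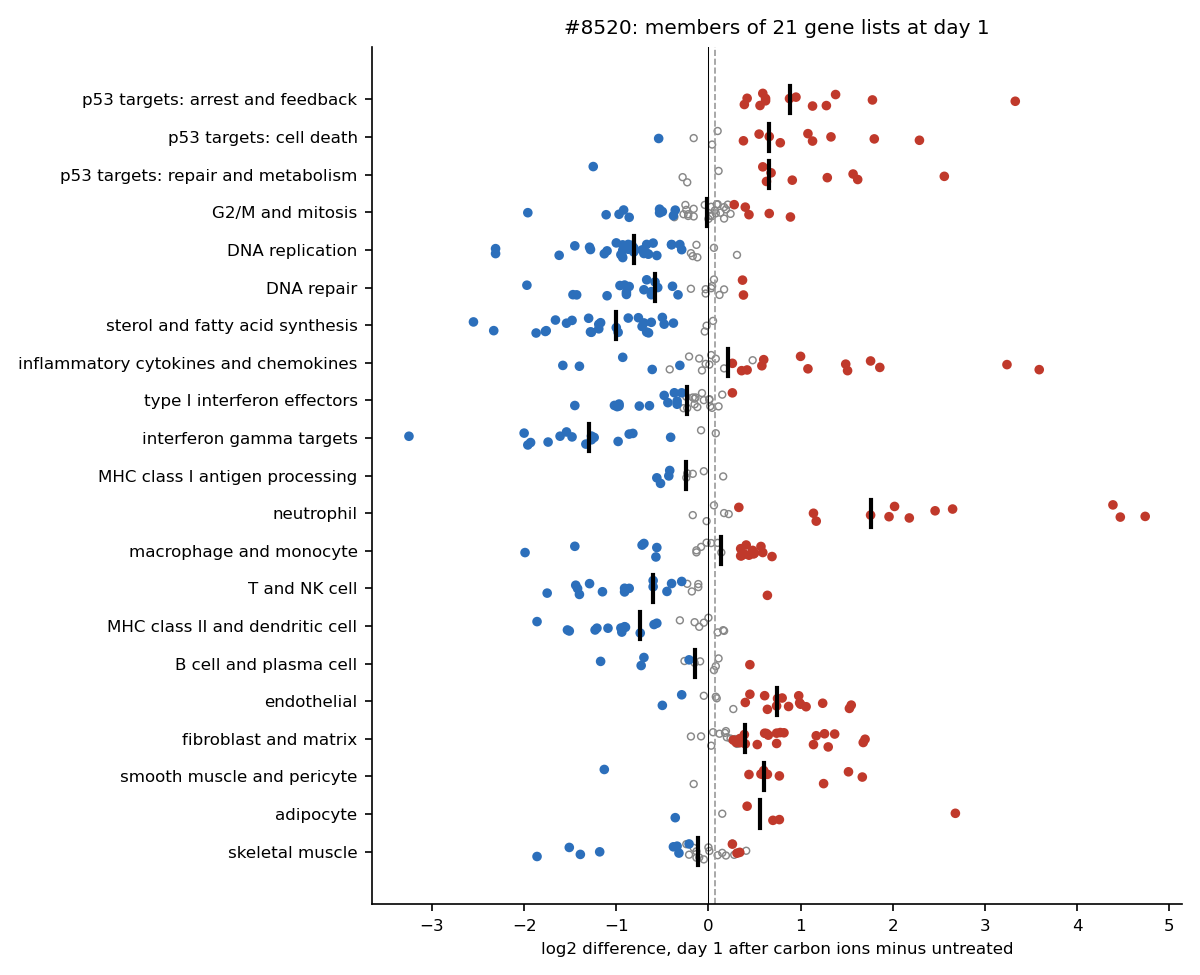
Log2 difference at day 1 after carbon ions minus untreated for the tested members of 21 gene lists. Each point is a gene, filled red (higher) or blue (lower) where called and open where not, the black bar is the list's median, and the dashed line is the median of all genes (0.07). Neutrophil genes reach furthest to the right, with a median of 1.76, and interferon gamma targets furthest to the left, with a median of -1.30.

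The largest rise was in Retnlg, which encodes a resistin-like protein made by neutrophils. Its intensity was 3.65 and 4.23 on the untreated arrays and 99.1 and 112 at day 1, 26.8-fold higher (log2 4.74, SE 0.107, adjusted p = 2e-38, limma). S100a9 and S100a8, the chains of the neutrophil protein calprotectin, rose from 6.73 and 5.88 to 147 and 132 and from 5.83 and 6.27 to 129 and 124. For these 3 genes the untreated and irradiated arrays lay far apart. The rule that named the largest rises and falls admits only groups that do not overlap. Such separation, here and below, therefore adds no support.

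Behind them came genes of other roles. Hpgd, the main prostaglandin-degrading enzyme, rose from 0.281 and 0.248 to 3.49 and 3.18 (log2 3.66, SE 0.146). Ecrg4, the precursor of a secreted peptide, rose from 0.835 and 0.706 to 8.78 and 8.65 (log2 3.5, SE 0.120). Celf5, an RNA-binding protein, and Cyp2c23, an arachidonic acid-metabolising cytochrome P450, rose by 3.64 and 3.63 on the log2 scale, from untreated intensities between 0.166 and 0.276. Such dim starting levels make the fold depend on the background step, which is not known. Slc9b2, a sodium/proton exchanger abundant in osteoclasts, rose by 3.31 and the carboxylesterase Ces2e by 3.24.

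The largest falls among the genes named by rule were in Gbp8, a guanylate-binding GTPase, and Idi1, an enzyme of isoprenoid synthesis. Gbp8 went from 12.5 and 12.1 untreated to 1.29 and 1.30 at day 1, 9.49-fold lower (log2 -3.25, SE 0.118, adjusted p = 3.5e-29). Gatm, which makes the creatine precursor guanidinoacetate, fell by 2.45, the interferon-induced chemokine Cxcl11 by 2.2 and Cybb, the catalytic subunit of the phagocyte NADPH oxidase, by 1.99. Gatm was also 1.35 higher (log2, adjusted p = 9.7e-09) on the untreated arrays used here than on the untreated #8520 arrays of the gamma arm.

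In each of the 3 groups of p53 targets most tested genes were higher at day 1, while p53 activity itself was not measured. Of 13 tested genes of cell-cycle arrest and feedback, 13 rose (12 after quantile normalization), with a median of 0.88 against 0.07 for all genes. With the mean of a gene's probes 11 rose. For Sesn1 and Tob1 the probes kept gave 0.56 and 0.42, while a dimmer probe of each gave -0.6 and -0.32. Of 13 cell-death targets 9 rose and 1 fell (median 0.66), and of 12 targets in repair and metabolism 8 rose and 1 fell (median 0.65).

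Ptprv, a receptor-type phosphatase of the p53 arrest response, gave intensities of 3.79 and 3.52 untreated and 35.1 and 38.6 at day 1 (log2 3.33, SE 0.0996, adjusted p = 5.7e-33). A second, dim Ptprv probe gave 0.16. Cdkn1a, the p21 inhibitor of cyclin-dependent kinases, stood at 37.5 and 42.8 untreated and at 99.5 and 109 at day 1 (log2 1.38, SE 0.192, adjusted p = 4.2e-08). Ccng1, a cyclin that feeds back on p53, went from 15.9 and 14.5 to 48.4 and 55.8 (log2 1.78), and the groups of all 3 genes were well apart. Mdm2, the ubiquitin ligase that degrades p53, was raised less, from 4.56 and 4.28 to 6.52 and 7.03 (log2 0.62, SE 0.204, adjusted p = 0.010). That call was lost without the untreated replicate 2 (0.57) or the day 1 replicate 2 (0.56).

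Among the cell-death targets, the BH3-only protein gene Pmaip1 (Noxa) rose from 1.72 and 1.75 to 5.81 and 6.30 (log2 1.80), and the desmosome-associated Perp from 0.172 and 0.179 to 0.744 and 0.988 (log2 2.29). Fas, a death receptor, rose by 1.1, Phlda3, an inhibitor of Akt, by 1.33 and Bbc3 (Puma) by 0.55. Ei24, of the endoplasmic reticulum, was the fall, from 4.57 and 4.58 to 3.04 and 3.26. In the repair and metabolism group, Dcxr, a xylulose and dicarbonyl reductase, rose from 7.09 and 6.21 to 38.1 and 40.3 (log2 2.56), and Ak1, adenylate kinase, by 1.57. The heparan sulfatase Sulf2 rose by 1.62 on the probe kept, while another probe of the gene gave 0.00. Ddb2, which recognises UV damage, and Rrm2b, which supplies nucleotides for repair, were not called (-0.28 and -0.23). The fall was in Tap1, a peptide transporter of antigen presentation, from 11.4 and 9.82 to 4.24 and 4.63.

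Cell-cycle genes split into 2 patterns. Mitosis genes were close to the untreated level: of 38 tested 5 were higher and 10 lower, with a median of -0.02. After quantile normalization 2 were higher and 18 lower, with a median of -0.27, so the lean of this list at day 1 depends on the scaling. DNA replication genes were lowered under both scalings: of 38 tested 32 fell and 0 rose (median -0.81), or 36 after quantile normalization (median -0.94). The 6 that were not called lay between -0.19 and 0.31.

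Under the deposited scaling, some single mitosis genes returned to the untreated level. Cdc20, the activator of the anaphase-promoting complex, gave 26.2 and 25.4 untreated, 8.66 and 9.57 at 6 h, 28.2 and 29.9 at day 1 and 6.25 and 7.03 at day 3. Kif20a, a kinesin of cytokinesis, gave 13.5 and 12.7, then 3.46 and 3.28, then 13.6 and 13.8, then 2.94 and 3.37. For both genes the day 1 arrays stood at the untreated level and above all arrays of 6 h and day 3. At day 1 against untreated neither was called, at 0.17 (SE 0.117, adjusted p = 0.23) for Cdc20 and 0.07 (SE 0.110, adjusted p = 0.63) for Kif20a. Ube2c, the ubiquitin-conjugating enzyme of mitotic exit, rose above the untreated level, from 56.4 and 57.2 to 97.3 and 114 (log2 0.89), and Ccnb2, cyclin B2, from 87.4 and 86.2 to 138 and 136 (log2 0.66; 0.28 and not called after quantile normalization, adjusted p = 0.13). Members that fell included the mitotic kinases Plk1 (-0.53) and Aurkb (-0.97), and Kif23, a central spindle kinesin, at -1.96. Kif23 was 1.39 higher (log2) on these untreated arrays than on the untreated arrays of the gamma arm.

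Mitosis genes are known to carry the cell-cycle genes homology region (CHR), a short element bound by the DREAM and MuvB complexes near the start of transcription. The letters TTTGAA or TTCGAA, read on both strands, were found in 26 of 34 mitosis promoters (76.5%), in 8 of 36 replication promoters (22.2%) and in 21.7% of 27025 genes, over 300 bases from 250 before to 50 after the start. These are RefSeq promoters of build GRCm38.p6. Cdc20, Prc1 (a microtubule bundler of the central spindle, 79.2 and 76.3 untreated, 79.4 and 80.9 at day 1) and Ube2c are shown because they fell at 6 h and stood at or above their untreated level at day 1. Capitals mark the CHR, whose first base lies 18, 30 and 29 bases before the start. They cover 80 bases each, at chr4:118437344-118437423 (minus strand), chr7:80294396-80294475 (plus) and chr2:164769849-164769928 (plus).
Cdc20: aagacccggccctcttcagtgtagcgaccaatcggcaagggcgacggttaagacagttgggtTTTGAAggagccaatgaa
Prc1: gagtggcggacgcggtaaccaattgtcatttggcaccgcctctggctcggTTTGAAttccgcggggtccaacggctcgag
Ube2c: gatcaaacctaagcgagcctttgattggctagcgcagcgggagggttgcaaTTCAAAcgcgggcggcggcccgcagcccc

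Ccne2, the cyclin that with Cdk2 opens S phase, gave 3.32 and 3.05 untreated and 0.627 and 0.654 at day 1 (log2 -2.31, SE 0.131, adjusted p = 3.8e-21). Mcm7, a subunit of the replicative helicase, gave 13.7 and 12.4 against 2.55 and 2.71 (log2 -2.31, SE 0.163), with 1.67 of difference between the untreated arrays of the arms. The other helicase subunits fell by less: Mcm2 by 1.28, Mcm3 by 0.93, Mcm4 by 0.87, Mcm5 by 0.95 and Mcm6 by 0.83. Pola1, the catalytic subunit of the polymerase that starts new strands, fell by 1.62, the histone chaperone subunit Chaf1b by 1.45, the licensing factor Cdc6 by 1.13 and thymidine kinase Tk1 by 1.10. The sliding clamp gene Pcna was not called (-0.19, adjusted p = 0.29). DNA repair genes leaned the same way: of 27 tested 17 fell and 2 rose (median -0.58), with Ung, which removes uracil from DNA, at -1.97, and the checkpoint kinase Chek1 at -1.43. The rises were small, 0.38 for the single-strand break scaffold Xrcc1 and 0.37 for the end-joining ligase Lig4, and Xrcc1 was not called after quantile normalization (0.21). Between the untreated arms, 10 of the 27 repair genes were higher in the carbon arm and 3 lower, with 1.75 the largest difference. Over all genes the shares were 18.3% and 17.3%. With the untreated arrays of both arms as baseline, 17 repair genes were lower at day 1.

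Promoters of replication genes more often hold E2F sites. The letters TTTGGCGC, TTTCGCGC, TTTCCCGC or TTTGCCGC, on both strands, were in 13 of 36 replication promoters (36.1%), in 1 of 34 mitosis promoters (2.94%) and in 2.6% of all genes. Mcm6, Mcm5 and Pola1, which fell at 6 h and day 1, are shown with these letters in capitals. Overlapping matches on opposite strands run together. In Mcm6 they begin 110, 106 and 47 bases before the start, in Mcm5 153 and 149 and in Pola1 138. They lie at chr1:128359706-128359835 (minus strand), chr8:75109336-75109508 (plus) and chrX:93632156-93632313 (minus).
Mcm6: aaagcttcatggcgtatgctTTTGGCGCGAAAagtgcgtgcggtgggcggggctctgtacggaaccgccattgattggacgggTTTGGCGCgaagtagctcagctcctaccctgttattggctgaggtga
Mcm5: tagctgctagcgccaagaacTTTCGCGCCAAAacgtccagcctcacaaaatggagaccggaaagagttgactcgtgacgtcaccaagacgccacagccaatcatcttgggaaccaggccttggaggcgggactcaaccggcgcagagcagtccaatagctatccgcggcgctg
Pola1: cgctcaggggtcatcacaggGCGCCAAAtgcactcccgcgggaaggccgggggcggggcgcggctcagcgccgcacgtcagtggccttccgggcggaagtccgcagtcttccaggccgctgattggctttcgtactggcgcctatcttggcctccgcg

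**Figure D2:**
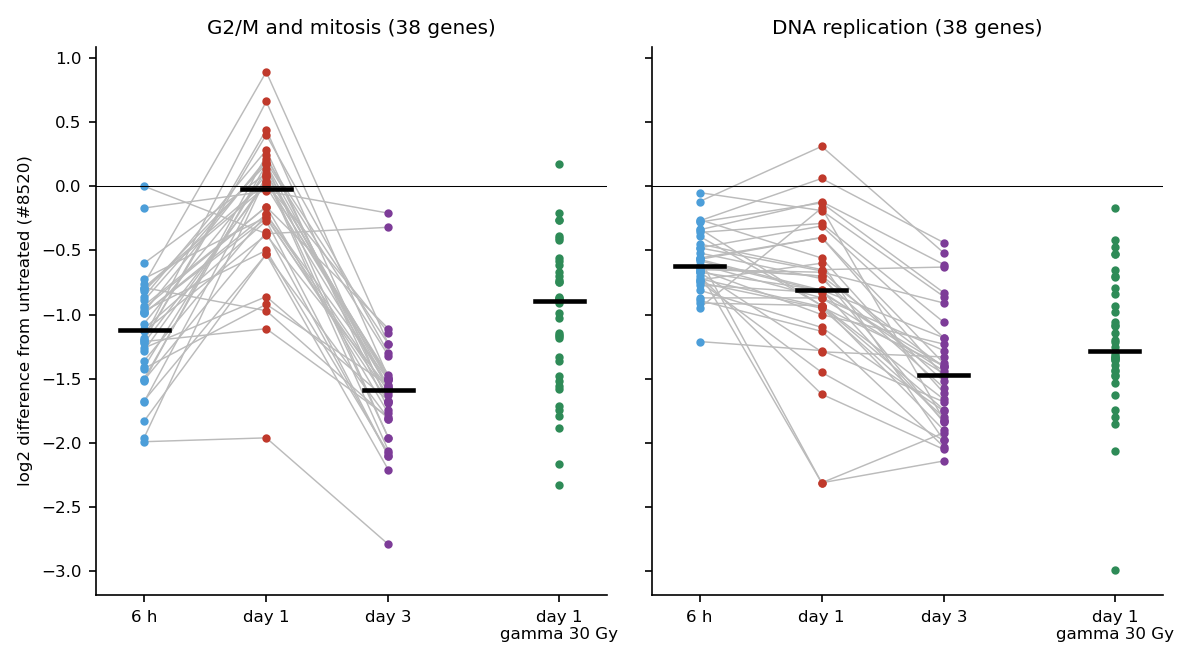
Log2 difference from untreated #8520 of each G2/M and mitosis gene (left) and each DNA replication gene (right) at 6 h, day 1 and day 3 after carbon ions, joined by grey lines, and at day 1 after 30 Gy gamma rays against the gamma arm's own untreated arrays. Black bars are medians. The mitosis medians are -1.12 at 6 h, -0.02 at day 1 and -1.59 at day 3 and -0.90 after gamma rays, while replication stays below 0 throughout.

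Genes of cholesterol and fatty acid synthesis fell almost as a block. Of 29 tested genes 26 fell and 0 rose, with a median of -1.0, and quantile normalization gave 26 and 0 as well. Squalene epoxidase, Sqle, gave 4.22 and 4.48 untreated and 0.731 and 1.0 at day 1 (log2 -2.33, SE 0.115, adjusted p = 1.5e-23). Idi1, isopentenyl diphosphate isomerase, gave 10.3 and 11.3 against 1.86 and 1.82 (log2 -2.55, SE 0.134, adjusted p = 2e-22). In both the day 1 arrays lay below the untreated ones by more than 4-fold.

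Further down the same pathway, the demethylation enzymes Msmo1 and Cyp51 fell by 1.87 and 1.77, and lanosterol synthase Lss by 1.76. Upstream, farnesyl diphosphate synthase Fdps fell from 122 and 115 to 43.2 and 41.5 (log2 -1.48) and HMG-CoA synthase Hmgcs1 by 1.30. The transcription factors of the pathway fell too, Srebf1 and Srebf2 by 1.19 each. Fatty acid synthase, Fasn, fell by 0.65. Dhcr7 and Ebp, late steps of the pathway, and the desaturase Scd1 were not called, between -0.04 and 0.05.

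The sterol regulatory element TCACNCCAC, on both strands, was in 1 of 24 promoters of the list (4.17%) and in 1.44% of all genes. The CCAAT box, bound by NF-Y, was in 20 of 24 (83.3%) against 41.1% of all genes, but equally in 83.3% of promoters of the p53 arrest list, whose genes rose. Idi1 and Msmo1 are shown with CCAAT boxes of either strand in capitals, at chr13:8885526-8885605 (plus strand, 45 and 14 bases before the start) and chr8:64733579-64733758 (minus strand, 160, 96 and 55 bases before it).
Idi1: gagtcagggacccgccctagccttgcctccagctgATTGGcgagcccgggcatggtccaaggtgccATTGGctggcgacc
Msmo1: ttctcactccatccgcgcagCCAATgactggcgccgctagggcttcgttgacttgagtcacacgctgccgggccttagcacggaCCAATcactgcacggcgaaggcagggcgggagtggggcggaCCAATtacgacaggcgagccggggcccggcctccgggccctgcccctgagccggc

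Neutrophil markers rose as a group. Of 17 tested 12 rose and 0 fell, with a median of 1.76 under the deposited scaling and 1.62 after quantile normalization. The summed intensity of 22 markers was 60.0 and 60.4 untreated, 368 and 372 at 6 h, 466 and 476 at day 1, and at most 101 at day 3. The day 1 sum is above that of every other #8520 group used here, gamma rays at day 1 included, at 78.4 and 80.7.

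Il1r2, a decoy receptor for interleukin 1, rose from 1.13 and 1.46 to 8.46 and 7.72 (log2 2.65), and the neutrophil collagenase Mmp8 from 1.87 and 1.81 to 7.86 and 8.85 (log2 2.18). The gelatinase Mmp9, the protease Asprv1 and the histamine-making enzyme Hdc rose by 2.02, 2.46 and 1.96. The receptors that recruit and sustain neutrophils, Cxcr2 and Csf3r, rose by 1.14 and 1.17. The granule protein genes Ngp and Ltf were not called (-0.02 and 0.22), nor was the surface marker Cd177 (-0.17), and the dim probes of Elane, Mpo and Camp were not tested.

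Inflammatory cytokines and chemokines moved both ways. Of 28 tested 13 rose and 5 fell (median 0.22), or 10 and 8 after quantile normalization. Cxcl2, a ligand of Cxcr2, gave 2.13 and 2.13 untreated and 26.6 and 24.9 at day 1 (log2 3.59, SE 0.160, adjusted p = 1.9e-25). Saa3, an acute-phase protein, gave 9.08 and 9.91 against 89.1 and 89.8 (log2 3.24, SE 0.147). In both genes the arrays of day 1 lay far above the untreated ones.

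The other Cxcr2 ligands Cxcl3 and Cxcl5 rose by 1.86 and 1.49, and Cxcl1 by 0.36, a call lost after quantile normalization (0.30). Il33, an alarmin of stromal cells, rose from 5.72 and 6.40 to 16.8 and 17.6 (log2 1.51), Ccl3 by 1.76, and Il1b by 1.00. Prostaglandin synthase 2, Ptgs2, went the other way, from 7.03 and 5.86 to 2.05 and 2.24 (log2 -1.58), as did Acod1, which makes itaconate in macrophages (-1.4), and Il6 (-0.93). Il6 had stood 1.46 above untreated at 6 h.

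Interferon gamma targets fell further than any other tested list of more than 10 genes. Of 18 tested 16 fell and 0 rose, with a median of -1.30, or 18 with a median of -1.55 after quantile normalization. Gbp4, another guanylate-binding GTPase, gave 39.2 and 37.6 untreated and 9.58 and 9.65 at day 1 (log2 -2.0, SE 0.0871, adjusted p = 7.9e-26). Cxcl9, a chemokine for activated T cells, gave 57.9 and 55.6 against 14.6 and 15.1 (log2 -1.93, SE 0.102). These pairs did not come near each other.

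The immunity-related GTPases Iigp1 and Igtp fell by 1.96 and 1.74, Gbp5 by 1.61, Cxcl10 by 1.33, and Socs1, a feedback inhibitor of interferon signalling, by 1.24. Irf1 and Ifi47 were not called (-0.08 and 0.08). The probe of interferon gamma itself, Ifng, was too dim to be tested, at 0.733 and 0.998 untreated and 0.172 and 0.161 at day 1.

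Type I interferon effectors, which answer mainly to interferon alpha and beta, fell less. Of 30 tested 13 fell and 1 rose (median -0.23), or 22 and 0 after quantile normalization. Cmpk2, a mitochondrial nucleotide kinase, fell from 1.43 and 1.35 to 0.524 and 0.488 (log2 -1.45), Isg15, the ubiquitin-like modifier, by 1.0 and Stat2, a signal transducer, by 0.99. The antiviral GTPase Mx1 gave 7.39 and 7.71 untreated and 6.83 and 8.43 at day 1 and was not called (0.01). The rise was in Eif2ak2 (0.26), whose other probe gave a fall. Of 9 tested genes of MHC class I antigen processing 4 fell and 0 rose (median -0.24), or 9 and 0 after quantile normalization. Nlrc5, the transactivator of class I genes, fell by 0.56. Erap1 (-0.42) lost its call when either day 1 array or the untreated replicate 1 was left out, and its direction turned to 0.02 when its probes were averaged.

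Interferon-stimulated response elements were searched as GAAA, any 2 bases and GAAA, on both strands. They were in 10 of 14 promoters of interferon gamma targets (71.4%), in 14 of 24 of type I effectors (58.3%) and in 3.99% of all genes. Gbp2 (24.3 and 26.6 untreated, 8.11 and 10.2 at day 1), Gbp3 (41.2 and 40.3, then 14.5 and 19.8) and Igtp (26.0 and 28.6, then 7.94 and 8.35) are shown because the element lies close to the start. It begins 59 bases before the start in Gbp2, 45 and 39 in Gbp3 and 34 in Igtp, and stands in capitals. The windows are chr3:142620583-142620662, chr3:142559964-142560043 and chr11:58199476-58199555, all on the plus strand.
Gbp2: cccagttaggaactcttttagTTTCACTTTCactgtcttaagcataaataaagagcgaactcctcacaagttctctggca
Gbp3: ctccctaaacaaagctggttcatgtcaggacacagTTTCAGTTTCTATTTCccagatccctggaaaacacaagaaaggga
Igtp: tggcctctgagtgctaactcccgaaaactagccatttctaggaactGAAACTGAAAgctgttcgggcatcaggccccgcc

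Lymphocyte genes fell beside the interferon gamma targets. Of 19 tested T and NK cell markers 14 fell and 1 rose (median -0.60, and 13 and 1 after quantile normalization). Klrk1, the activating receptor NKG2D, gave 3.02 and 2.85 untreated and 0.890 and 0.852 at day 1 (log2 -1.75, SE 0.175, adjusted p = 3.4e-12). Gzma, a granzyme, gave 11.4 and 12.7 against 4.41 and 4.45 (log2 -1.44, SE 0.141). The summed intensity of 25 markers fell from 70.4 to 72.8 untreated to 40.7 to 42.4 at day 1, after 93.8 to 95.3 at 6 h.

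The NK cell receptors Klrd1 and Ncr1 fell by 1.42 and 1.4, perforin, Prf1, by 1.29 and the T cell receptor kinase Zap70 by 1.15. Cd4, Cd3d, Cd247 and Cd6, all T cell genes, were not called, between -0.23 and -0.11, and Cd3e and Cd8a were too dim to be tested. The interleukin 7 receptor, Il7r, was the 1 rise, at 0.64. Of 11 B cell genes 4 fell and 1 rose, with the immunoglobulin M chain Ighm at -1.17.

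Genes of MHC class II antigen presentation fell as well. Of 21 tested class II and dendritic cell genes 13 fell and 0 rose (median -0.74), with 13 and 0 after quantile normalization. The class II transactivator Ciita gave 3.71 and 4.21 untreated and 1.4 and 1.34 at day 1 (log2 -1.53, SE 0.117), and the invariant chain Cd74 gave 64.6 and 61.2 against 26.2 and 27.4 (log2 -1.23). The class II chains H2-Ab1 and H2-Aa fell by 0.95 and 0.94, and Batf3 and Irf8, transcription factors of dendritic cells, by 1.51 and 1.09. The untreated arrays differed from each other in Clec9a (2.53 and 7.49), so its fall of 1.86 rests on unequal controls.

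Macrophage genes divided, and their balance turned with the scaling. Of 25 tested 12 rose and 6 fell (median 0.14), or 6 and 10 after quantile normalization. Adgre1, the F4/80 antigen, fell from 2.14 and 2.16 to 0.80 and 0.773 (log2 -1.45), with 1.39 of difference between the untreated arrays of the 2 arms. The mannose receptor Mrc1 fell by 0.70 and the monocyte receptor Ccr2 by 0.57. The apolipoprotein Apoe, the lipid receptor Trem2 and lysozyme Lyz2 rose by 0.69, 0.57 and 0.49, with Lyz2 no longer called after quantile normalization (0.12).

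Most endothelial genes were higher at day 1. Of 21 tested endothelial markers 15 rose and 2 fell (median 0.74), or 15 and 1 after quantile normalization. Tie1, a receptor of the angiopoietin system, gave 6.07 and 5.81 untreated and 16.5 and 18.4 at day 1 (log2 1.55, SE 0.120, adjusted p = 8e-16). Mmrn2, an endothelial matrix protein, rose by 1.53, the phosphatase Ptprb by 1.24, the sialomucin Emcn by 0.98 and Kdr, the main VEGF receptor, by 0.74. Plvap, of the endothelial diaphragm, rose by 1.06 on the probe kept and was lost (0.50) when all its probes were averaged. Pecam1, a pan-endothelial adhesion molecule, was not called (-0.05, adjusted p = 0.85), Esm1 and Erg fell by 0.50 and 0.29 (Erg was not called after quantile normalization), and Cdh5 and Flt1 were too dim to be tested.

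Of 32 tested fibroblast and matrix genes 21 rose and 0 fell (median 0.39), or 14 and 1 after quantile normalization (median 0.21). The fibrosarcoma itself carried markers of this list, so tumour cells and host fibroblasts cannot be told apart as its source. The proteoglycan Lum gave 6.25 and 5.68 untreated and 19.4 and 19.4 at day 1 (log2 1.70, SE 0.145, adjusted p = 1.9e-14), and Mfap5, a microfibril protein, rose by 1.68. Col6a2 and Col6a1, chains of collagen VI, rose by 1.37 and 1.17, the proteoglycan Dcn by 1.26 and the gelatinase Mmp2 by 1.30. Col11a1, a minor fibrillar collagen that was not in the list, rose by 2.76, from 1.26 and 1.24 to 8.62 and 8.33. The major matrix genes Col3a1, Fn1 and Sparc, and Vim, were not called, between 0.18 and 0.24.

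Of 11 tested smooth muscle and pericyte genes 9 rose and 1 fell (median 0.60), or 8 and 1 after quantile normalization. Smooth muscle myosin, Myh11, gave 1.12 and 0.989 untreated and 3.35 and 3.37 at day 1 (log2 1.67), and calponin, Cnn1, rose by 1.52. Smooth muscle actin, Acta2, went from 135 and 121 to 187 and 213 (log2 0.64, and 0.28 after quantile normalization). The fall was in Des, desmin (-1.13), which skeletal muscle also makes. Among 6 tested fat cell genes 4 rose and 1 fell, with adiponectin, Adipoq, from 0.398 and 0.469 to 2.79 and 2.75 (log2 2.68).

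Of 26 tested skeletal muscle genes 8 fell and 3 rose (median -0.11), or 14 and 1 after quantile normalization. The largest falls were the slow-fibre troponins Tnnc1 (-1.86), Tnni1 (-1.51) and Tnnt1 (-1.18) and the slow myosin light chain Myl2 (-1.39). The fast-fibre genes Myh4 and Tnni2 were not called, at 0.00 and 0.10, and a dimmer Myh4 probe gave -1.92.

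Stress pathways gave mixed counts. Of 25 tested NRF2 and oxidative stress genes 14 rose and 2 fell (median 0.31), or 10 and 3 after quantile normalization. Haem oxygenase, Hmox1, gave 41.0 and 39.1 untreated and 85.7 and 92.9 at day 1 (log2 1.16, SE 0.105), the glutathione transferase Gstm2 rose by 1.15 and the plasma peroxidase Gpx3 by 1.06. Glutathione reductase, Gsr, fell by 1.65, with 1.23 of difference between the untreated arrays of the arms, and the classical NRF2 targets Gclc, Gclm and Srxn1 were not called, between -0.04 and 0.02.

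Of 23 hypoxia and glycolysis genes 9 rose and 8 fell (median 0.03), or 4 and 8 after quantile normalization. The carbonic anhydrase Car12 rose by 1.15 and the mTOR inhibitor Ddit4 by 0.67, while the glycolytic enzyme Tpi1 fell by 0.67. Of 26 unfolded protein and heat shock genes 6 rose and 5 fell (median -0.03), or 4 and 12 after quantile normalization. The inducible Hsp70 gene Hspa1a rose from 10.9 and 12.9 to 36 and 40.3 (log2 1.68), and Ddit3 (CHOP) by 1.03, while Hspa5 (BiP) was not called (0.00). Of 19 immediate-early genes 3 rose and 8 fell (median -0.03), or 1 and 9. Egr1 and Fos, early growth-response transcription factors, fell by 1.31 and 0.99, and the difference between the untreated arms was 0.81 and 0.97 in them.

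Day 1 was then compared directly with 6 h, without the untreated arrays. Mitosis genes stood out: of 38 tested 33 were higher at day 1 than at 6 h and 0 lower (median 1.04), or 29 and 1 after quantile normalization (median 0.70). Of 13460 genes tested in this comparison 6599 were called, 49.0%, with 5000 higher (37.1%) and 1599 lower (11.9%), and a median over all genes of 0.16. After quantile normalization 50.3% of the called genes were higher, in place of 75.8%, which made 16.9% of all genes higher and 16.7% lower. Cdc20 was 1.67 higher at day 1 (SE 0.117, adjusted p = 3.1e-17), Kif20a 2.03 and Plk1 1.30. Plk1 gave 0.825 and 0.881 at 6 h and 2.09 and 2.09 at day 1.

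Matrix and smooth muscle genes also rose between 6 h and day 1, 26 of 32 (13 after quantile normalization) and 8 of 11 (7). The genes with the largest rises were Hpgd (3.20), Ecrg4 (2.91), Adipoq (2.67), Col11a1 (2.52) and Cnn1 (2.37). Interferon gamma targets fell in 15 of 18 (median -1.22), with Gbp8 at -3.63, from 16.0 and 16.1 at 6 h. T and NK cell genes fell in 16 of 19 (median -1.07). Inflammatory genes fell in 17 of 28 (median -0.47), with Cxcl1 at -2.69, and immediate-early genes in 11 of 19, with Fos at -2.48.

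Skeletal muscle genes were lower than at 6 h in 16 of 26 and higher in 1 (median -0.50), or 21 and 0 after quantile normalization, and the sum of the 29 markers went from 1220 to 1230 at 6 h to 942 to 975 at day 1. The other named falls from 6 h were the slow troponins Tnnc1 (-3.81) and Tnni1 (-3.46), the metabolic switch kinase Pdk4 (-3.34) and Rgs1, a regulator of G protein signalling in leukocytes (-3.24). Rgs1 gave 0.695 and 0.678 untreated, 5.23 and 6.5 at 6 h and 0.678 and 0.561 at day 1, so it was highest at 6 h among these times and day 3 (1.4 and 1.72). Tnnc1 went from 4.14 and 5.08 at 6 h to 0.336 and 0.319. Of the 13 p53 targets of arrest and feedback 7 were higher and 3 lower at day 1 than at 6 h, or 3 and 4 after quantile normalization. Mdm2 was lower by 1.10 (adjusted p = 1.3e-05), from 13.7 and 15.4 at 6 h, and Cdkn1a differed by less than its error (-0.02, SE 0.192, adjusted p = 0.93), although quantile normalization gave -0.53.

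Between day 1 and day 3 interferon and lymphocyte genes rose, while mitosis, replication and sterol genes fell. Of 13460 genes 7743 were called, 57.5%, with 2092 higher at day 3 (15.5%) and 5651 lower (42.0%) and a median of -0.18. Quantile normalization left 48.4% of called genes higher, in place of 27.0%, or 21.7% of all genes higher and 23.1% lower. Interferon gamma targets were higher at day 3 in 16 of 18 (median 1.64) and type I effectors in 28 of 30 (median 1.54), with 0 lower in either. T and NK cell genes were higher in 17 of 19 (median 1.36). Mitosis genes were lower in 36 of 38 (median -1.56), replication genes in 33 of 38 and sterol genes in 25 of 29. After quantile normalization these counts were 18, 29 and 17 higher, and 36, 25 and 19 lower, in the same order.

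Gbp8 gave 25.6 and 24.0 at day 3, 4.26 above day 1 (log2, SE 0.118, adjusted p = 5.7e-34), and so passed its untreated level. Inmt, a methyltransferase of amines, went from 4.35 and 4.08 to 76.7 and 77.3 (4.19), the eosinophil chemokine Ccl11 from 3.32 and 3.05 to 33.9 and 42.2 (3.57), the lipocalin Apod by 3.55 and the peptide hormone secretin, Sct, by 3.45. These genes were high on both day 3 arrays and on none of the earlier ones. In the other direction S100a9 fell by 3.94 and S100a8 by 3.25 after day 1, and Slc9b2 by 3.20. The smooth muscle genes Actg2 and Tagln fell by 3.18 and 3.13. Tagln gave 90.5 and 108 at day 1 and 11.4 and 11.1 at day 3, with 66.5 and 64.1 untreated.

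**Figure D3:**
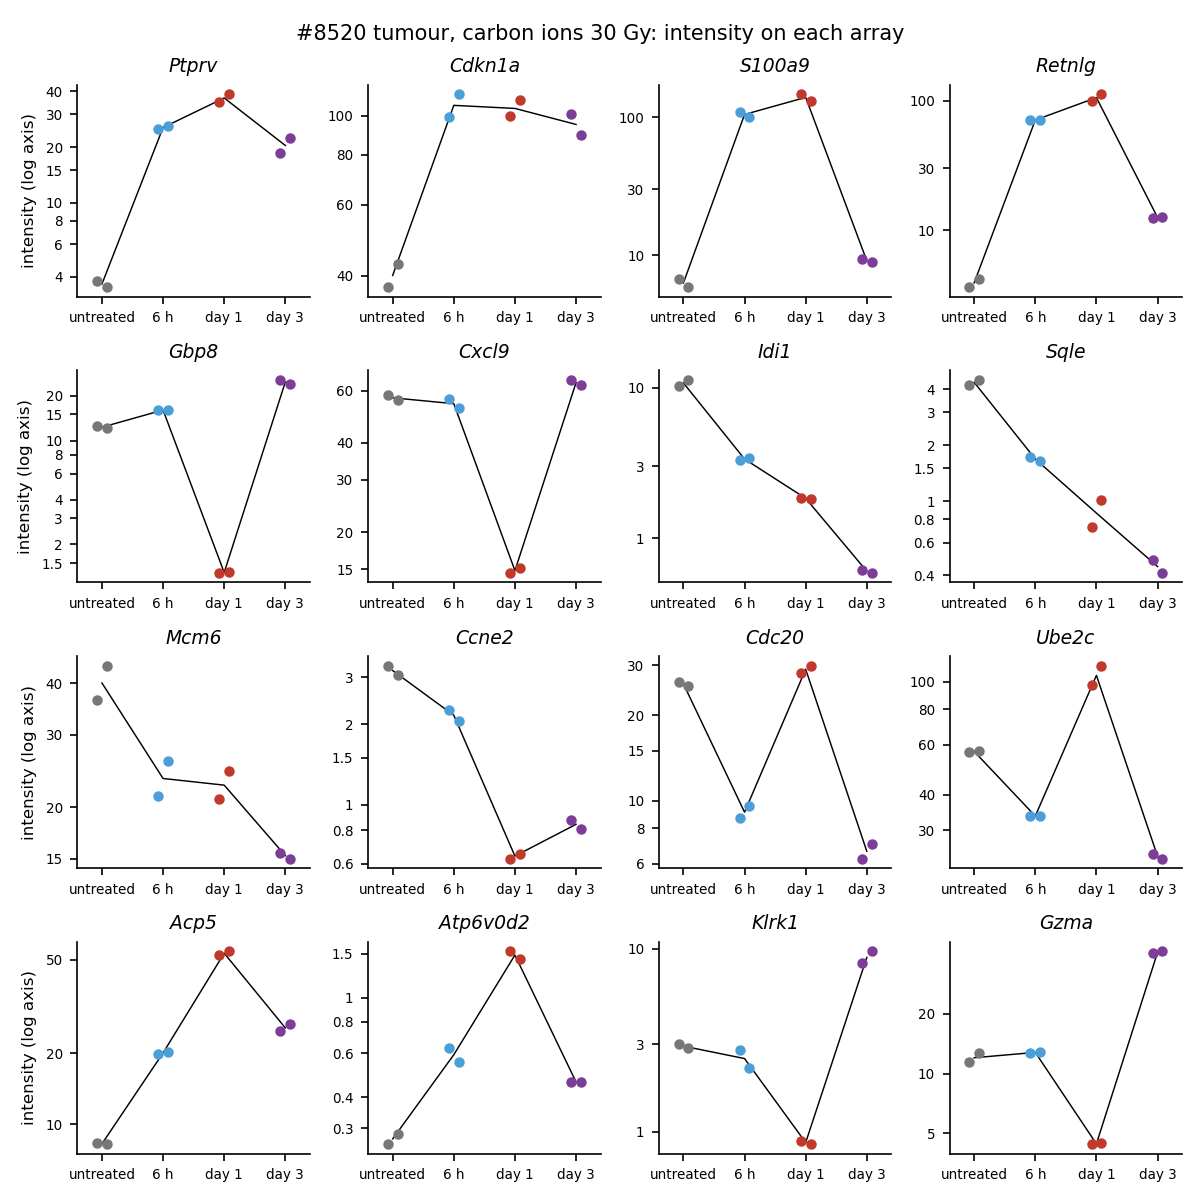
Deposited intensity, on log axes, of 16 genes on each #8520 array of the carbon-ion arm: untreated, 6 h, day 1 and day 3, with a line through the geometric mean of each pair. Day 1 is the low point for Gbp8, Cxcl9, Klrk1 and Gzma, the high point for S100a9, Retnlg, Acp5 and Atp6v0d2, and a return to or above the untreated level for Cdc20 and Ube2c.

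The 3 responses against untreated use the same untreated arrays, so they are given side by side only. Calls made up 28.4% of genes at 6 h (10.2% higher, 18.2% lower), 48.9% at day 1 and 50.3% at day 3 (19.1% higher, 31.1% lower). Replication genes had medians of -0.62, -0.81 and -1.47 at the 3 times, and sterol genes -0.87, -1.0 and -1.56. p53 targets of arrest had 0.80, 0.88 and 0.53. Neutrophil genes had 1.34, 1.76 and 0.53. Endothelial genes had 0.06, 0.74 and 0.50, and T and NK cell genes 0.39, -0.60 and 0.77. Type I effectors had -0.08, -0.23 and 0.96.

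The response of #8520 was next set against the mean response of NR-S1, SCCVII and NFSa at the same dose and day. It differed most plainly in interferon gamma targets, where 15 of 18 were lower and 1 higher than the mean of the others (median -1.45, and 17 and 0 after quantile normalization). Of 13417 genes 5545 were called, 41.3%, with 3347 above (24.9%) and 2198 below (16.4%). Quantile normalization left 48.5% of these calls above, in place of 60.4%, or 17.4% of all genes above and 18.6% below. Of the called genes, 3187 lay above and 1997 below all 3 other tumours. These genes had already been called against the mean of the same tumours. Most were therefore bound to lie beyond all 3, and the counts add no support. The median for interferon gamma targets was -1.30 in #8520, -1.15 in NR-S1, 1.05 in SCCVII and 0.02 in NFSa, so the fall was shared with NR-S1.

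Replication genes were lower than in the other tumours in 24 of 38 (median -0.60, and 30 after quantile normalization). Their own medians were -0.81 in #8520, 0.06 in NR-S1, -0.25 in SCCVII and -0.52 in NFSa. T and NK cell genes were lower in 13 of 19, with medians of -0.60, -0.40, 0.84 and 0.00 in the same order. Endothelial genes were higher in 13 of 21 (median 0.39), with 0.74, 0.36, -0.02 and 0.16, and smooth muscle genes in 9 of 11 (median 0.60; 6 after quantile normalization). Sterol genes were lower in 16 of 29 and higher in 0, with -1.0, -0.08, -0.85 and -0.69. Skeletal muscle genes were lower in 21 of 26 (median -0.85), with -0.11, 0.08, 1.07 and 1.05.

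Single genes went further. Cyp2c23 rose by 3.63 in #8520 and changed by 0.66, -0.08 and 0.38 in NR-S1, SCCVII and NFSa, a difference of 3.31 (SE 0.238, adjusted p = 1.6e-16). Ecrg4 rose by 3.5 against 0.47, 0.28 and 0.39 (difference 3.12), Slc9b2 by 3.31 against 0.65, -0.71 and 0.68 (3.10), and Hpgd by 3.66 against -0.68, 1.13 and 1.27 (3.08). Acp5, the tartrate-resistant acid phosphatase of osteoclasts and macrophages, rose from 8.29 and 8.22 to 52.4 and 54.3, by 2.69, against -0.07, -0.48 and 0.54 (difference 2.70). In these 5 genes the changes of the other tumours reached 1.27 at most.

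Retnlg differed by 2.93 on average, but NFSa also rose by 4.19, against 0.81 in NR-S1 and 0.43 in SCCVII. Below the other tumours stood Calhm6, an ion channel gene of activated immune cells, at -1.83 against -0.13, 2.05 and 0.37 (difference -2.59), and Mcm7, at -2.31 against 1.22, 0.12 and -0.51 (-2.59). Acod1 differed by -2.36, the elongation factor Eef2 by -2.31, granzyme D, Gzmd, by -2.29 and Gatm by -2.26. For Mcm7, Eef2 and Gatm the untreated arrays of the 2 #8520 arms differed by 1.67, 1.91 and 1.35, in the direction that enlarges the fall.

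**Figure D4:**
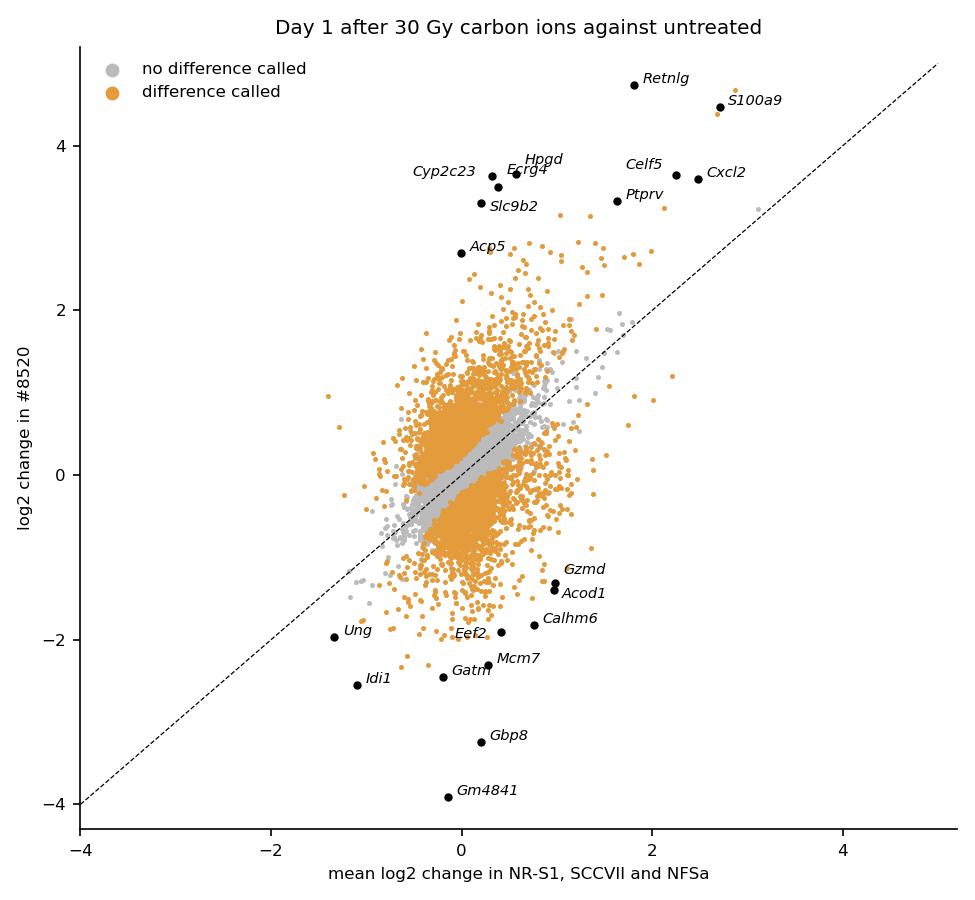
Log2 change at day 1 after carbon ions in #8520 (vertical) against the mean change in NR-S1, SCCVII and NFSa (horizontal), each against its own untreated arrays. Each point is a gene, orange where the difference was called, and the dashed line marks equal change. Cyp2c23, Ecrg4, Slc9b2 and Hpgd lie near 3.5 on the vertical axis and near 0.5 on the horizontal one.

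Last, the day 1 response was set against that to the same dose of gamma rays, each with its own untreated #8520 arrays. The gamma day 1 arrays are numbered 3 and 4 in their titles, and that arm's untreated arrays 1 and 2. What the numbers stand for is not stated, so a separate set of tumours cannot be told apart from the beam. The largest list difference was in skeletal muscle, whose 26 tested genes had a median of -0.11 after carbon ions and -2.42 after gamma rays. The summed intensity of the 29 muscle markers was 153 to 157 on the gamma day 1 arrays against 723 to 1010 on that arm's untreated arrays. The gamma day 1 pieces thus held far less muscle RNA, and the part of this in the other differences was not tested. Pvalb, a calcium buffer of fast muscle, gave 56.4 and 68.6 untreated and 2.62 and 2.23 after gamma rays, and in the carbon arm 50.2 and 42.7 untreated and 64.8 and 64.6 at day 1 (difference 5.17, SE 0.150). Myh4, fast myosin, differed by 4.92.

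Of 13434 genes 4780 were called, 35.6%, with 3670 higher after carbon ions (27.3%) and 1110 lower (8.26%), around a median of 0.18. Quantile normalization left 46.8% of called genes higher, in place of 76.8%, or 12.6% of all genes higher and 14.3% lower. The untreated arrays of the arms differed from each other in 4783 of 13441 genes, 35.6% as well, 18.3% higher in the carbon arm and 17.3% lower. Mitosis genes were higher after carbon ions in 31 of 38 and lower in 0 (median 0.91), or 28 and 0 after quantile normalization. After gamma rays 34 of 38 mitosis genes were below untreated (median -0.90), with 45.1% of all genes called, 17.8% higher and 27.2% lower. Cdc20 gave 28.3 and 33.1 untreated and 14.0 and 12.9 at day 1 after gamma rays, a response 1.35 lower than after carbon ions (SE 0.165, adjusted p = 3.8e-09).

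Neutrophil genes were higher after carbon ions in 13 of 17 and lower in 0 (median 1.07). Retnlg gave 2.62 and 3.33 untreated and 5.02 and 4.23 after gamma rays, so that the responses differed by 4.10 (SE 0.151, adjusted p = 3.1e-28), and S100a8 and S100a9 differed by 3.92 and 3.77. Interferon genes were lower after carbon ions, type I effectors in 25 of 30 (median -0.88) and interferon gamma targets in 11 of 18 (median -0.86), with 0 higher in either. Mx1 rose from 7.63 and 7.89 to 33.2 and 38.6 after gamma rays and did not change after carbon ions beyond its error (difference -2.20, SE 0.189). Cmpk2 differed by -2.33, rising by 0.87 after gamma rays. Lhx4, a LIM homeobox factor, fell from 7.01 and 6.52 to 1.80 and 1.83 after carbon ions and rose from 5.75 and 5.40 to 12.1 and 11.8 after gamma rays (difference -3.0), on the brighter of its 2 probes.

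The remaining named differences rest on uneven controls. Ppl, periplakin, differed by -2.44, with untreated intensities of 0.0891 and 0.0069 in the gamma arm. Wnt10b, a Wnt ligand, differed by -2.13, but its untreated carbon arrays gave 0.337 and 2.40, and without the second of them its day 1 change was -0.14. p53 targets of arrest were higher after carbon ions in 8 of 13 and lower in 0 (median 0.48), or 4 and 0 after quantile normalization, while Cdkn1a itself did not differ beyond its error (0.10, SE 0.272, adjusted p = 0.81, and -0.19 after quantile normalization). Sterol genes fell after both beams, with medians of -1.0 and -1.38, and 11 of 29 were higher after carbon ions and 0 lower, or 5 higher and 3 lower after quantile normalization.

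**Figure D5:**
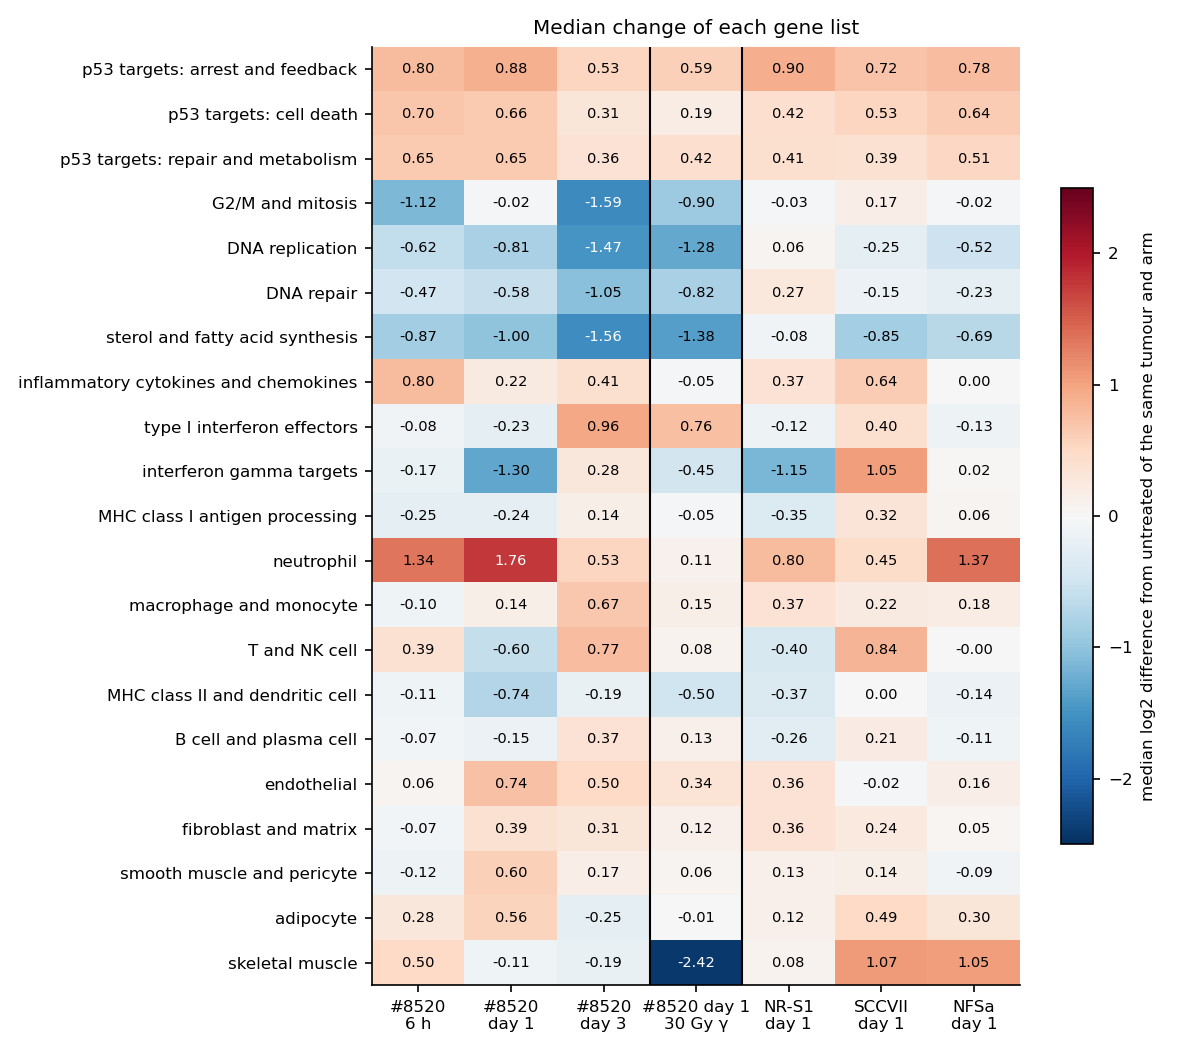
Median log2 difference from untreated of the same tumour and arm for 21 gene lists: #8520 at 6 h, day 1 and day 3 after carbon ions, #8520 at day 1 after 30 Gy gamma rays, and NR-S1, SCCVII and NFSa at day 1 after carbon ions. Red is higher and blue lower. In the #8520 day 1 column neutrophil genes are highest at 1.76 and interferon gamma targets lowest at -1.30, and skeletal muscle is at -2.42 in the gamma column.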

How the data were processed

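The deposited values are one-colour CodeLink intensities on a linear scale, 36227 probes on each of 88 arrays. What scanner software, background method and scaling produced them is not given in the sources used here. To judge by the values, background had been subtracted (lowest value -0.2708) and array medians lie near 1. Of all values 0.751% were missing and 0.149% were not above 0, and the latter were set to missing before log2 was taken. Of the probes 21615 had 1 gene symbol, 681 several and 13931 none. Symbols were updated by Entrez number to RefSeq names (GRCm38.p6), and 1 probe, that of the highest mean, stood for each of 18067 genes. Genes in the lowest 25% of mean log2, or lacking values on more than a few arrays (under 80% measured), were dropped, which kept 13465; a comparison uses those with values on both sides.

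limma 3.58.1 in R 4.3.3 fitted 44 group means to all 88 arrays, which share the estimate of spread (44 residual and 7.3 prior degrees of freedom). P-values are two-sided and adjusted by Benjamini-Hochberg over all genes of a comparison, and a gene was called under 0.05. The number of arrays limits the precision. The 27 gene lists hold 679 genes. Members and lists were chosen with earlier results of these data known, so a list's direction is not independent evidence, and lists were described by counts and medians with no test of their own.

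Genes named were, among called genes with a value on all arrays compared, no predicted symbol and, for day 1, groups that do not overlap and a brighter mean log2 of at least -1: the 12 largest rises and 10 largest falls against untreated, 5 each way against 6 h and day 3, 6 each way against the other tumours, 5 each way against gamma rays, up to 4 members of each list, and always Cdkn1a, Mdm2, Ccng1 and Plk1. Other list members are given as examples of their list, chosen after their values were seen. Alternatives were quantile normalization, median centring, adding 0.0902 before taking logs, testing every gene, the dimmest 50% left out, the mean of a gene's probes, a fit to the compared groups alone, limma's trend and robust options, a 1.5-fold threshold, the untreated arrays of both arms as baseline, a replicate block, each array left out, and the 8 arrays with brighter dim probes left out.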

Additional observations from a re-analysis of the deposited data

Results flagged for a closer look

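By limma's test of the difference itself, the day 1 response of #8520 differed from the mean of the other 3 tumours in 5545 of 13417 genes, 41.3%. It differed from the response to gamma rays in 4780 of 13434 genes, 35.6%. The untreated #8520 arrays of the 2 arms differed from each other in 4783 of 13441 genes, also 35.6%. Against the other tumours the named differences, on the log2 scale, were 3.31 for Cyp2c23, 3.12 for Ecrg4, 3.10 for Slc9b2, 3.08 for Hpgd, 2.93 for Retnlg and 2.70 for Acp5 among the higher. Among the lower they were -2.59 for Calhm6, -2.59 for Mcm7, -2.36 for Acod1, -2.31 for Eef2, -2.29 for Gzmd and -2.26 for Gatm. Against gamma rays they were 5.17 for Pvalb, 4.92 for Myh4, 4.10 for Retnlg, 3.92 for S100a8 and 3.77 for S100a9, and -3.0 for Lhx4, -2.44 for Ppl, -2.33 for Cmpk2, -2.20 for Mx1 and -2.13 for Wnt10b. As given above, the untreated arms differed in Mcm7, Eef2 and Gatm, and Ppl and Wnt10b rest on uneven controls.

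Probes that carry several gene symbols or none were kept out of the comparisons above. At day 1 against untreated, limma called 3760 of 10880 such probes, 1983 higher and 1777 lower, and 1433 of them by at least 1.5-fold.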

How the results depend on the processing

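The number of calls at day 1 against untreated, 6580, was 6021 after quantile normalization (2810 higher, 3211 lower), 6592 after median centring, 7167 with the untreated arrays of both arms and 2433 with a 1.5-fold threshold. Leaving out 1 array gave 5056 to 5507 calls, against 6 h 4999 to 5472, for day 3 against day 1 6434 to 6779, against the other tumours 4278 to 5705, against gamma rays 3224 to 5012 and between the untreated arms 3367 to 3685. The gamma count was 3224 without that arm's untreated replicate 2 and 5012 without its replicate 1. Leaving out the dimmest 50% of genes gave 3132 calls between the untreated arms, in place of 4783, with fewer genes tested. Same-numbered arrays of the #8520 carbon groups deviated from their group means with low correlations, of -0.0579 to 0.0948. Low correlations cannot show whether same-numbered arrays were handled together. A replicate block gave 6641 calls.

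Quantile normalization moved these list counts at day 1: mitosis genes 2 higher and 18 lower, inflammatory genes 8 lower, type I effectors 22 lower, hypoxia genes 4 higher, unfolded protein genes 12 lower, muscle genes 14 lower and macrophage genes 6 higher and 10 lower. The untreated arrays of both arms as baseline gave 8 mitosis genes higher. With a 1.5-fold threshold 2 mitosis genes were higher and 5 lower, 7 type I effectors lower, 2 hypoxia genes higher and 2 lower, 3 unfolded protein genes higher and 2 lower, 8 NRF2 genes higher, 3 immediate-early genes lower, 4 muscle genes lower and 2 macrophage genes higher. Without the dimmest 50% of genes, which tests fewer members, the counts were 3 lower for inflammatory genes, 7 for type I effectors, 5 for immediate-early genes, 3 for macrophage genes, 4 for T and NK cells and 8 for MHC class II, and 5 smooth muscle genes were higher. Hypoxia genes lower numbered 5 without the untreated replicate 1 or the day 1 replicate 1 and at most 7 with any array left out, and muscle genes lower 5 without the untreated replicate 1 or the day 1 replicate 2 and at most 7. For these counts the cause was not tested.

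Over the named genes, 2188 of 2240 values under an alternative kept their direction and call, 43 lost the call, 8 gained it and 1 reversed: Erap1, 0.02 with all its probes averaged (adjusted p = 0.96) against -0.42. Probes near the low end of intensity are limited by the background step, and 2 arrays a group by their number.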

Other observations

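Genes known from osteoclasts, the bone-resorbing cells of the macrophage lineage, were looked up after Slc9b2 and Acp5 had been seen among the largest rises, so they were chosen after their values were seen and no test of the group was made. Atp6v0d2, a proton pump subunit, gave 0.259 and 0.286 untreated and 1.53 and 1.43 at day 1 (log2 2.44, SE 0.145), and the receptor Oscar rose by 2.39 from 0.239 and 0.316. The protease cathepsin K, Ctsk, rose from 12.6 and 11.4 to 34 and 35.5 (log2 1.53), and the fusion gene Ocstamp by 1.07. Ostm1, Car2 and Tcirg1, all needed for acid secretion, rose by 0.50, 0.40 and 0.30, with Tcirg1 not called after quantile normalization (0.14). Of the remaining genes looked up, Dcstamp (0.17), Calcr (0.10), Itgb3 (0.01), Nfatc1 (-0.21), Tnfrsf11a (0.25) and Tnfsf11 (-0.07) were not called, and Csf1, Clcn7 and Tnfrsf11b fell by 1.01, 0.94 and 0.46. Against the other 3 tumours the differences were 2.31 for Oscar, 2.31 for Atp6v0d2, 1.19 for Ctsk and 1.11 for Ocstamp. By day 3 Oscar had fallen by 2.13 and Atp6v0d2 by 1.69 from day 1.

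Gm4841, a predicted interferon-inducible GTPase gene outside the naming rule and picked after its value was seen, had the largest fall of all tested genes, from 10 and 11.3 untreated to 0.803 and 0.619 at day 1 (log2 -3.91, SE 0.143, adjusted p = 4.2e-29). It stood at 3.78 and 4.0 at 6 h and 3.48 and 3.99 at day 3, so day 1 was its lowest time.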
